A study of Mus musculus with 10 samples.

Results

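Chemokines are small secreted proteins that direct the movement of white blood cells, and the genes described here are the chemokine ligands and their receptors as expressed in interscapular brown fat (iBAT). Members were chosen by symbol, as every gene whose name begins with Ccl, Cxcl, Cx3cl or Xcl (ligands) or with Ccr, Cxcr, Cx3cr, Xcr or Ackr (receptors) and goes on with a number. This gave 48 of the 15075 genes in the table: 27 ligands, 17 receptors and 4 atypical receptors. RNA was sequenced from the iBAT of 5 Control and 5 AdCKO mice on the C57BL/6 strain, aged 20 weeks and housed at room temperature, with 1 library per mouse. AdCKO mice carried the Adipoq-Cre transgene, in which the adiponectin promoter drives Cre recombinase, together with a Crls1 gene whose exon 4 is flanked by loxP sites. Control mice carried the same floxed Crls1 without Cre and are called wild-type in the labels. Crls1 encodes cardiolipin synthase, which makes the mitochondrial lipid cardiolipin. Adipoq-Cre is active in white as well as brown adipocytes, so iBAT was not the only fat depot that lost the gene, and the other cells of iBAT kept it. The comparison asks how mRNA of the chemokine system differed in brown fat whose adipocytes lacked Crls1.

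Chemokines are grouped by the spacing of their first cysteines into the CC, CXC, CX3C and XC families. They act through receptors that signal by inhibitory G proteins, and many ligands share a receptor. Atypical receptors bind chemokines without this signalling and remove, move or display them. In fat, chemokines are made by adipocytes, endothelial and stromal cells and by leukocytes, and CCL2 acting on CCR2 is best known for bringing monocytes into the tissue, where they become macrophages.

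Values are the normalized reads per kb of counted exon that the authors deposited, a level per length, so that genes can be compared with each other. They are not counts and none of them is 0. Crls1 was 1291, 927, 813, 1101 and 1170 in Control 1 to 5, and 193, 195, 249, 208 and 242 in AdCKO 1 to 5, which matches the labels in all 10 libraries. All 10 listed markers of brown adipocytes were present, with summed levels of 217253 to 245844 in Control and 136177 to 160455 in AdCKO. Summed over genes after normalization, the reads came to 7615403 to 8171138 in Control and 5419800 to 5843024 in AdCKO, and the depth before normalization is unknown. Markers of skeletal muscle, a tissue that borders this depot, summed to 5591, 21809 and 8282 in AdCKO 1, 2 and 4, against 141 and 129 in AdCKO 3 and 5 and 96.7 to 125 in Control. Where a call changed without those 3 libraries, the value without them stands beside it. Because whole tissue was sequenced, fewer cells of a type and less RNA per cell cannot be told apart.

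More chemokine and receptor genes were higher than lower in AdCKO iBAT. Of the 48 members, 20 were higher, 3 were lower, 5 were tested without being called, and 20 were too low to be tested. A gene was tested when the mean of either group was at least 10 normalized reads per kb, and called at an adjusted p under 0.01 by limma (two-sided, Benjamini-Hochberg over the 11244 genes tested) on the scale of log2(value + 1). Fold changes on this scale understate the change of low genes. Over all genes tested, 25.6% were called higher and 28.0% were called lower. A mean of at least 10 was reached by 28 members: 22 reached it in both groups, 6 reached it in AdCKO only (Ccl3, Ccl4, Cxcl1, Cxcl13, Ccr7 and Cxcr3), and 0 in Control only. Those 6 had to be higher in AdCKO to be tested at all. Of the 22, 15 were higher, 3 were lower and 4 were not called.

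Without any filter on level, 22 of the 48 members were called higher and 3 lower, against 24.7% and 21.6% of all 15075 genes. The median log2 fold change, AdCKO over Control, was then 0.62 over all 48 members and 0.03 over all genes. In 19 of the 48 members all AdCKO libraries lay above all Control libraries, in 3 they all lay below, and in 26 the groups overlapped. The matching share over all 15075 genes was not computed, so nothing is concluded from that count. Of the 28 tested members, 16 had all AdCKO libraries above, 3 had all below and 9 overlapped, against 24.5% above and 26.4% below over all genes tested. For a gene without overlap the exact two-sided permutation test gives p = 0.0079, the smallest that 5 mice against 5 allow. The 3 lower members were Ccl27a, its receptor Ccr10, and Ackr3, the atypical receptor for CXCL12.

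**Figure D1:**
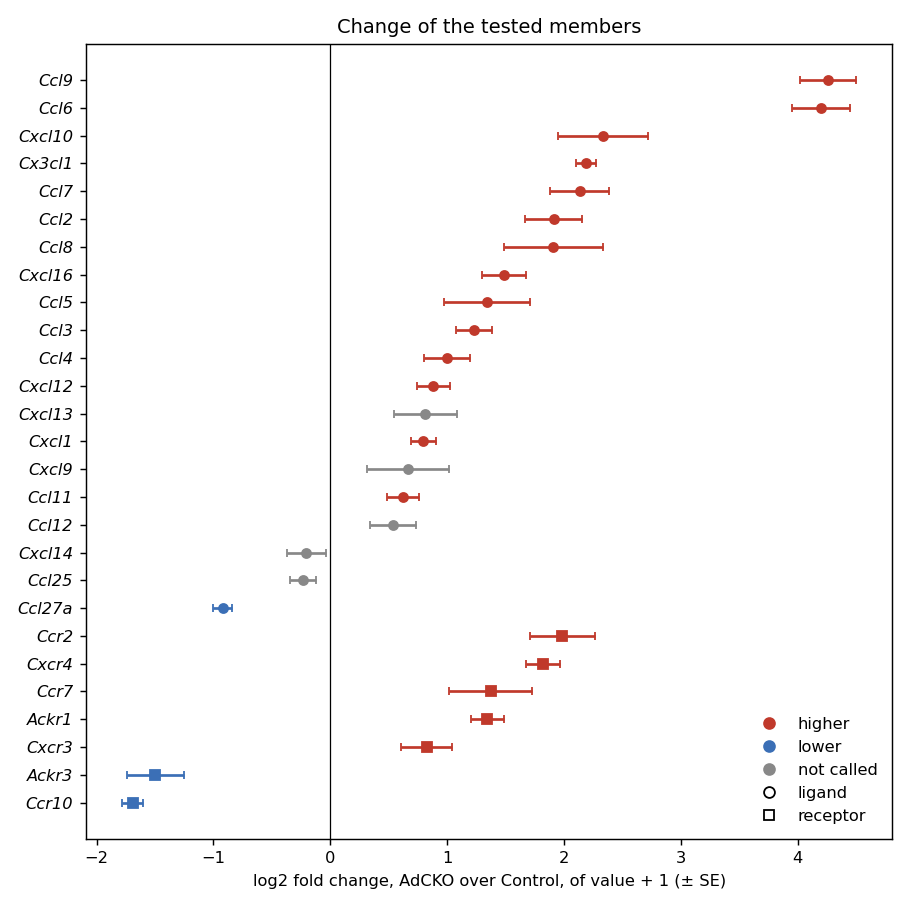
Log2 fold change (AdCKO over Control, of value + 1) with its standard error from limma for 27 of the 28 tested members, 5 mice a group, ligands as circles above and receptors as squares below. Red marks members called higher, blue members called lower and grey members not called. Ccl9 at 4.26 and Ccl6 at 4.20 stand apart at the top, and Ccr10 at -1.69 and Ackr3 at -1.50 at the bottom.

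The direction of each of the 23 called members did not depend on how the libraries were scaled. With every library rescaled to the same total, the median of all genes moved up by 0.47, and 61.4% of genes tested were called higher and 9.57% lower. After quantile normalization, which gives all libraries the same distribution, 22.2% were called higher and 31.9% lower. All 23 called members kept their direction under both, also relative to the median of all genes. Not every call was kept: after quantile normalization Ccl5 (limma adjusted p = 0.0115), Ccr7 (0.0218) and Cxcr3 (0.0601) were not called.

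The 2 ligands with the largest change, and 2 ligands that inflammatory signals are known to induce, are shown with the 250 bases before their transcription start. The sequences are from RefSeq (build GRCm38.p6), whose promoter table held 35 of the 48 members, and are written 5′ to 3′ in the direction of the gene. Capitals mark letters that match the NF-kB consensus, the AP-1 motif TGANTCA, the interferon response core (GAAA, 2 bases of any kind and GAAA again) or the TATA box TATAAA.
Ccl9 (chr11:83578637-83578886, minus strand): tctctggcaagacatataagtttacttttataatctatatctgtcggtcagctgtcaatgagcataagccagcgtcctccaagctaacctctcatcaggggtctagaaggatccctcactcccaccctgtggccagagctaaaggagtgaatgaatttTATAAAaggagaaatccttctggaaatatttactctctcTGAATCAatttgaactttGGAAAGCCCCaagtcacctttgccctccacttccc
Ccl6 (chr11:83593088-83593337, minus strand): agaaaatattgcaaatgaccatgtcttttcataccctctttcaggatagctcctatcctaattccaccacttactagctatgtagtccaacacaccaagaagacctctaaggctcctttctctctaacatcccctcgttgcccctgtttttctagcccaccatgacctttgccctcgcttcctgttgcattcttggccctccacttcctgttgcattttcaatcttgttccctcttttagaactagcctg
Cxcl10 (chr5:92348890-92349139, minus strand): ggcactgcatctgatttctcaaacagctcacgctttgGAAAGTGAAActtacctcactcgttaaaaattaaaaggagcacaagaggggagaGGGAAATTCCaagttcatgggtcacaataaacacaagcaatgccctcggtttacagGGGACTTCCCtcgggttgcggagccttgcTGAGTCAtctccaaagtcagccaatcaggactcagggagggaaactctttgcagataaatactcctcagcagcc
Cxcl1 (chr5:90890995-90891244, plus strand): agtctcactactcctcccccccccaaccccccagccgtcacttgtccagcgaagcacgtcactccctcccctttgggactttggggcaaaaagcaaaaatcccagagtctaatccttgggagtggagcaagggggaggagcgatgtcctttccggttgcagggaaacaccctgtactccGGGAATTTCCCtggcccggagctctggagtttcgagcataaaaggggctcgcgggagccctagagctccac
Ccl9 held an NF-kB match that begins 35 bases before the start, with an AP-1 match at 53 and TATAAA at 92. Its neighbour Ccl6 held none of these letters in the stretch shown. Cxcl10 held NF-kB matches at 159 and 103 bases before the start, the interferon response core at 213 and an AP-1 match at 74. Cxcl1 held 2 overlapping NF-kB matches, at 71 and 70. The table held promoters of 12 of the 20 higher members, and in the window from 250 bases before to 50 after the start, NF-kB matched in 3 of these 12 (Ccl9, Cxcl1 and Cxcl10), against 4.505% of all 32851 promoters. AP-1 matched in 2 of the 12 (7.808% of all), the interferon response core in 1 (3.443%) and TATAAA, searched on the strand of the gene, in 4 (8.319%), the other motifs being searched on both strands. TGATGNAA, the core of the composite site that CHOP shares with C/EBP proteins, matched in 0 of the 12 (3.969% of all). Matches also occurred among the other members. Of the 2 lower members with a promoter, Ccl27a held NF-kB, AP-1 and TGATGNAA matches and Ackr3 held TATAAA. Of the 21 members not called or not tested, 4 held an NF-kB match, 3 an AP-1 match, 2 the interferon response core, 5 TATAAA and 0 TGATGNAA. All 3 higher members with an NF-kB match are among those shown, so the stretches shown are not typical of the 12. No motif is called particular to the higher members. These matches describe letters and are not evidence that a factor binds there.

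Ccl6 and Ccl9, neighbouring CC chemokines made by myeloid cells that attract leukocytes through CCR1, showed the largest changes of the family. Ccl6 was 24.0, 42.2, 57.5, 32.5 and 32.6 normalized reads per kb in Control 1 to 5, and 701, 832, 595, 1031 and 416 in AdCKO 1 to 5. The lowest AdCKO library was thus far above Control 3, the highest Control library. The means were 37.8 ± 12.8 and 715 ± 233 (SD, n = 5 each), an 18.9-fold ratio, and Ccl6 rose by 4.20 on the log2 scale (SE 0.25, limma adjusted p = 6.03e-08). Ccl9 was 9.69, 11.3, 15.5, 9.13 and 10.5 in Control and 258, 230, 233, 377 and 124 in AdCKO. AdCKO 4 was highest and AdCKO 5 lowest in both genes, and the groups did not overlap in either. The means of Ccl9 were 11.2 ± 2.54 and 244 ± 90.3 (SD, n = 5 each), a 21.7-fold ratio, with a log2 fold change of 4.26 (SE 0.24, adjusted p = 3.84e-08). The gene of their receptor, Ccr1, stayed under the filter at 2.59 in Control and 5.99 in AdCKO, and its libraries did not overlap.

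These changes reordered the ligands. As a share of the summed level of all 27 ligands, Ccl6 went from 3.48% of the Control mean to 25.4% of the AdCKO mean, from the 6th to the highest ligand. Ccl9 went from 1.03% to 8.69%, from the 16th to the third. Cxcl12, a chemokine of stromal cells that holds leukocytes in tissues and was highest in Control, fell in share from 28.0% to 19.9% while its own level rose. Summed ligand levels were 918 to 1395 in Control libraries and 1971 to 3463 in AdCKO libraries, so the groups did not overlap.

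**Figure D2:**
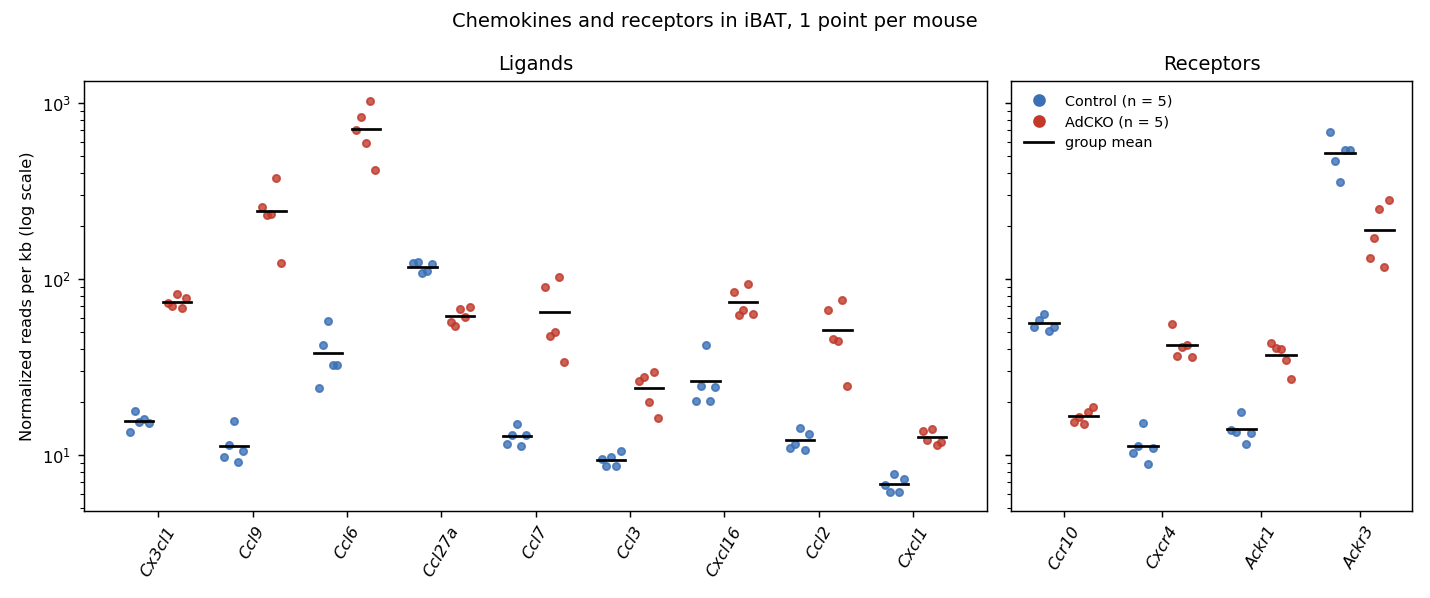
Normalized reads per kb (log axis) of the 12 tested members with the smallest p and of Ackr3, ligands on the left and receptors on the right, each point 1 mouse and each line a group mean (n = 5 Control in blue, n = 5 AdCKO in red). The groups are apart in all 13 genes: AdCKO lies above Control in 10 of them and below in Ccl27a, Ccr10 and Ackr3.

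Of the 4 ligands of CCR2, which recruit monocytes from blood, 3 were higher. Ccl2 was 10.9, 11.5, 14.2, 10.6 and 13.2 in Control and 66.9, 45.7, 44.6, 76.0 and 24.5 in AdCKO. Ccl7 was 11.6, 13.04, 15.1, 11.2 and 13.1 in Control and 89.5, 47.5, 49.8, 102 and 33.9 in AdCKO. In both genes AdCKO 4 and 1 were highest and AdCKO 5 was lowest, still above all Control libraries. The log2 fold change was 1.91 for Ccl2 (SE 0.24, adjusted p = 2.24e-05) and 2.14 for Ccl7 (SE 0.25, adjusted p = 1.26e-05). Ccl8, which acts on CCR2 and CCR8, had means of 37.4 ± 33.1 and 127 ± 55.3 (SD, n = 5 each) and a log2 fold change of 1.91 (SE 0.42, adjusted p = 0.00165). Its groups overlapped, because Control 3 at 96.6 stood above 2 of the AdCKO libraries while the other Control libraries were at 22.0 to 23.6. Ccl12, another CCR2 ligand, was 10.2 to 13.5 in Control and 10.965 to 26.3 in AdCKO and was not called (log2 fold change 0.54, adjusted p = 0.03). Without AdCKO 5 it was called (adjusted p = 0.00256). Of Ccl2, Ccl7, Ccl8 and Ccl12, the call of Ccl8 was lost when AdCKO 1, 2 and 4, with high muscle markers, were left out (log2 fold change 1.23, adjusted p = 0.0569).

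Ccl3, Ccl4 and Ccl5, known as products of activated macrophages and lymphocytes, were each called higher. Ccl3 and Ccl4, with Control means of 9.40 and 8.46, were tested only through AdCKO, and Ccl5 passed the filter in both groups. Ccl3 was 9.48, 8.67, 9.74, 8.65 and 10.5 in Control and 26.3, 27.6, 20.0, 29.6 and 16.2 in AdCKO, without overlap (log2 fold change 1.23, SE 0.15, adjusted p = 1.71e-05). Ccl4, beside it on chromosome 11, went from a mean of 8.46 ± 0.240 to 18.7 ± 5.97 (SD, n = 5 each; log2 fold change 1.00, SE 0.20, adjusted p = 0.000708). With AdCKO 1, 2 and 4 left out, Ccl4 was not called (0.55, adjusted p = 0.0188). Ccl5, which attracts T cells and monocytes, had means of 33.0 ± 22.9 and 81.7 ± 40.6 (SD, n = 5 each) and a log2 fold change of 1.34 (SE 0.37, adjusted p = 0.0067). Its groups overlapped, with Control 3 at 73.9 above AdCKO 2, 3 and 5. The call of Ccl5 was close to the threshold: leaving out Control 1, 2, 4 or 5 or AdCKO 1 or 4 gave adjusted p between 0.0157 and 0.0194, and fitting without a filter gave 0.0101. With AdCKO 1, 2 and 4 left out, Ccl5 was not called (0.88, adjusted p = 0.0909).

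Among the other CC ligands, Ccl11, the eosinophil attractant eotaxin that binds CCR3, rose 1.52-fold from an already high level, with means of 136 ± 31.8 and 206 ± 22.2 (SD, n = 5 each; log2 fold change 0.62, SE 0.14, adjusted p = 0.0018). Its groups overlapped at Control 3 (185) and AdCKO 5 (177), and without AdCKO 1, 2 and 4 it was not called (0.46, adjusted p = 0.0584). Ccl25, the ligand of CCR9 known from thymus and gut, had means of 16.3 and 13.7 and was not called (log2 fold change -0.23, adjusted p = 0.0899). After quantile normalization Ccl25 was called lower (log2 fold change -0.60, adjusted p = 0.000662).

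Ccl27a was the only ligand called lower. It encodes a CC chemokine best known from skin, where it attracts T cells through CCR10. Ccl27a was 123, 125, 108, 110 and 121 in Control and 57.0, 54.3, 67.7, 60.5 and 69.4 in AdCKO. Levels were even within each group and the groups did not overlap. The mean in AdCKO was 52.5% of that in Control, with a log2 fold change of -0.92 (SE 0.08, adjusted p = 1.24e-06). Its receptor gene Ccr10 was 53.1, 58.3, 63.6, 50.8 and 53.7 in Control and 15.4, 16.3, 15.1, 17.4 and 18.8 in AdCKO. Every AdCKO library was below every Control library by a wide margin, and the mean of AdCKO came to 29.7% of that of Control (log2 fold change -1.69, SE 0.09, adjusted p = 2.46e-08). The call of Ccl27a carries a limit of mapping: 43.3% of the 50-base stretches of its exons also occur in near copies such as Ccl27b, so part of its reads cannot be assigned to this gene with certainty. Ccl27a also shares 8 exon bases with Il11ra1 on the other strand.

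Of the 10 CXC ligands, 4 were called higher, 0 lower, 3 were not called and 3 were not tested. Cxcl1, a neutrophil attractant that binds CXCR2, was 6.72, 6.20, 7.83, 6.19 and 7.35 in Control and 13.6, 12.2, 14.0, 11.4 and 11.8 in AdCKO. It was tested only through AdCKO and stayed low in both groups but did not overlap (log2 fold change 0.79, SE 0.11, adjusted p = 3.56e-05). Cxcl12 rose 1.84-fold, with means of 304 ± 57.2 and 559 ± 98.8 (SD, n = 5 each; log2 fold change 0.88, SE 0.14, adjusted p = 0.000131). Its highest AdCKO library was AdCKO 3, unlike most of the higher members. Cxcl16, which exists as a membrane-bound and a shed ligand of CXCR6, was 20.4, 24.7, 42.2, 20.2 and 24.4 in Control and 84.4, 62.3, 66.9, 93.6 and 63.0 in AdCKO. Control 3 was highest in Control but below all AdCKO libraries (log2 fold change 1.49, SE 0.19, adjusted p = 2.21e-05). Of the annotated exon bases of Cxcl16, 552 are shared with Zmynd15 on the other strand, whose means were 6.23 in Control and 9.46 in AdCKO. Whether the counting used strand is not stated in the sources used here.

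Of the 3 CXCR3 ligands, known for induction by interferon and for attracting T and NK cells, 1 was called higher, 1 was not called and 1 was not tested. Cxcl10 had means of 23.7 ± 6.02 and 142 ± 75.0 (SD, n = 5 each), a 5.97-fold ratio (log2 fold change 2.33, SE 0.38, adjusted p = 0.000187). AdCKO 1 was highest for Cxcl10 at 233 and AdCKO 5 lowest at 39.3, above the highest Control library at 34.0. Cxcl10 shares 133 exon bases with Art3 on the other strand, whose mean was 457 in Control and 255 in AdCKO. Cxcl9 had means of 107 ± 68.1 and 161 ± 69.4 and was not called (log2 fold change 0.66, SE 0.35, adjusted p = 0.114). Control 3 at 226 was above every AdCKO library but AdCKO 1, and without Control 3 Cxcl9 was called higher (0.98, adjusted p = 0.00724). The remaining CXCR3 ligand, Cxcl11, was under the filter at 2.52 and 2.56.

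The other CXC ligands tested were not called. Cxcl13, which attracts B cells through CXCR5, was 14.1, 14.6 and 16.4 in AdCKO 1, 2 and 4 but 5.85 and 5.60 in AdCKO 3 and 5, against 5.00 to 6.06 in Control (log2 fold change 0.81, adjusted p = 0.0185). Its high libraries were the same 3 that had high muscle markers, and the part of that tissue in the value was not tested. Without AdCKO 3 or without AdCKO 5 Cxcl13 was called, at adjusted p = 0.00482 and 0.00314. Cxcl14, an abundant chemokine of epithelia and fat, had means of 128 and 112 (log2 fold change -0.21, adjusted p = 0.295).

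Cx3cl1, or fractalkine, had the smallest p of all members. It encodes a membrane-anchored chemokine, chiefly of endothelial and neural cells, that binds CX3CR1. Cx3cl1 was 13.5, 17.8, 15.5, 16.0 and 15.1 in Control and 73.0, 70.6, 81.7, 68.7 and 77.6 in AdCKO. Libraries of a group lay close together, AdCKO 3 was highest and AdCKO 4 lowest in AdCKO, and the groups were far apart. The means were 15.6 ± 1.55 and 74.3 ± 5.28 (SD, n = 5 each), a 4.77-fold ratio, with a log2 fold change of 2.19 (SE 0.08, adjusted p = 2.58e-09). Its receptor gene Cx3cr1 had means of 5.36 and 5.45, under the filter, and in the fit without a filter its adjusted p was 0.947.

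Of the 17 signalling receptors, 5 were called higher, 1 (Ccr10) was called lower and 11 were not tested. Cxcr4, the receptor of CXCL12 on most leukocytes, was 10.3, 11.3, 15.2, 8.89 and 10.9 in Control and 55.2, 36.7, 41.2, 42.4 and 36.2 in AdCKO. Even the lowest AdCKO library was above Control 3 (log2 fold change 1.82, SE 0.14, adjusted p = 4.88e-07). Ccr2, the monocyte receptor for CCL2, had means of 16.8 ± 6.74 and 68.6 ± 23.5 (SD, n = 5 each), a 4.08-fold ratio without overlap (log2 fold change 1.99, SE 0.28, adjusted p = 5.16e-05).

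Ccr7 and Cxcr3, receptors of lymphocytes, were tested only through AdCKO and called with little margin. Ccr7, which guides T cells and dendritic cells to lymph nodes, was 39.1 and 21.9 in AdCKO 1 and 4 and 8.33 to 9.96 in the other AdCKO libraries, against 4.63 to 6.07 in Control. The groups did not overlap (log2 fold change 1.37, SE 0.35, adjusted p = 0.00456). Leaving out Control 1, 2, 4 or 5 or AdCKO 4 took the adjusted p of Ccr7 to between 0.0107 and 0.0131, and without AdCKO 1, 2 and 4 it fell under the filter. Cxcr3, the receptor of CXCL9 and CXCL10 on activated T cells, had means of 7.41 ± 2.66 and 13.8 ± 3.76 (SD, n = 5 each) and overlapping groups (log2 fold change 0.82, SE 0.22, adjusted p = 0.0057). Leaving out Control 1, 4 or 5 or AdCKO 1, 2 or 4 gave adjusted p between 0.0112 and 0.0163 for Cxcr3. With AdCKO 1, 2 and 4 all left out its adjusted p was 0.134.

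The atypical receptors moved in opposite directions. Ackr1, which displays chemokines on the walls of venules, was 13.9, 13.5, 17.6, 11.5 and 13.2 in Control and 43.5, 40.6, 40.0, 34.6 and 27.2 in AdCKO, without overlap (log2 fold change 1.35, SE 0.14, adjusted p = 3.66e-06). Ackr3, which takes up and degrades CXCL12, was 684, 470, 357, 540 and 542 in Control and 131, 170, 250, 117 and 282 in AdCKO. Control 3 was the lowest Control library and AdCKO 5 the highest AdCKO library, and the groups did not overlap. The Ackr3 mean fell from 519 ± 119 to 190 ± 72.9 (SD, n = 5 each), to 36.6% of Control (log2 fold change -1.50, SE 0.24, adjusted p = 0.000165). Ackr3 had the highest level of any receptor member, so the summed level of the 21 receptors was lower in every AdCKO library (399 to 510) than in any Control library (547 to 813), although 6 receptors rose and 2 fell. Ackr2 and Ackr4 were under the filter, at 1.16 and 3.48 in Control and 1.47 and 2.86 in AdCKO.

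Read as ligand and receptor pairs, the CXCL12 system held changes in both directions: Cxcl12 rose 1.84-fold, Cxcr4 rose 3.74-fold and Ackr3 fell to 36.6%. Ccl27a and Ccr10 fell together. Ccr2 rose 4.08-fold beside its ligands Ccl2 (4.26-fold) and Ccl7 (5.05-fold). Cx3cl1 and Cxcl16 rose, while their receptor genes Cx3cr1 and Cxcr6 stayed under the filter, Cxcr6 with means of 3.33 and 3.79.

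The 20 untested members were Ccl19, Ccl22, Ccl24, Cxcl2, Cxcl11, Cxcl17 and Xcl1 among the ligands, and Ccr1, Ccr3, Ccr4, Ccr6, Ccr9, Cx3cr1, Cxcr1, Cxcr2, Cxcr5, Cxcr6, Xcr1, Ackr2 and Ackr4 among the receptors. In 3 of them, all AdCKO libraries lay above all Control libraries and the fit without a filter called them higher. Over all 15075 genes, 24.7% were called higher in that fit, so 3 of 20 is not above that share. Ccl22, a macrophage and dendritic cell product that binds CCR4, had means of 4.16 and 8.45 (adjusted p = 4.18e-05 in that fit). Ccr1 had means of 2.59 and 5.99 (adjusted p = 0.00037), and Cxcl2, a CXCR2 ligand, had means of 3.80 and 6.47 (adjusted p = 0.000653). The other 17 were not called in that fit. The row named Ccl19 lies at the position of Gm2023, and 96.4% of the 50-base stretches of Ccl19 occur in such copies, so its values (means of 5.85 and 9.28) cannot be assigned to Ccl19. Cxcr2, the neutrophil receptor for CXCL1, was at 0.238 and 0.243.

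Many members sit beside each other in the genome. Positions are on mm9, the build of the files. On chromosome 11, from 81849078 to 83478185, 10 CC ligand genes lie within 1629 kb: 9 of the 10 were higher and Ccl12 was not called. Ccl9 (83386418 to 83392138, minus strand) and Ccl6 (83401387 to 83406589, minus strand) are neighbours there, and their log2 fold changes of 4.26 and 4.20 stood above those of the genes that flank them, Ccl5 (1.34) and Ccl3 (1.23). Of the 6 CXC genes on chromosome 5, from 91320270 to 96390087, Cxcl1 and Cxcl10 were higher, Cxcl9 and Cxcl13 were not called, and Cxcl2 and Cxcl11 were not tested. Ccl3, Ccl4 and Cxcl1 were tested only through AdCKO, so they had to be higher in AdCKO to be tested. Over all genes tested, 25.6% were called higher and 28.0% lower. Cxcl9, Cxcl10 and Cxcl11 are adjacent, with log2 fold changes of 0.66, 2.33 and 0.01.

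**Figure D3:**
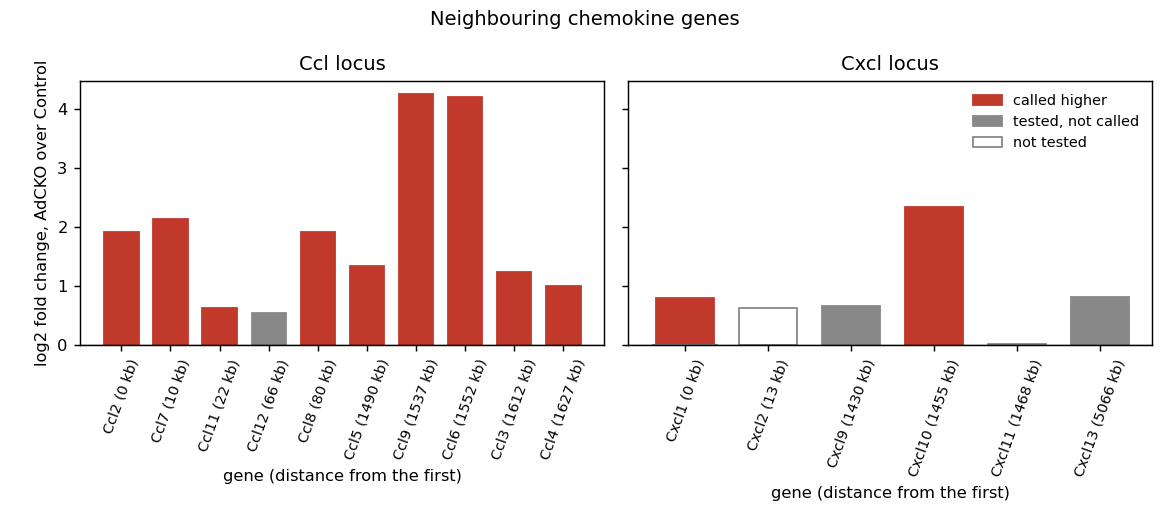
Log2 fold change (AdCKO over Control) of members in 2 gene clusters in their order on the chromosome, with the distance in kb from the first gene of the cluster below each bar. In the Ccl cluster every bar but that of Ccl12 is called higher (red), and Ccl9 and Ccl6 reach over 4, while in the Cxcl cluster only Cxcl1 and Cxcl10 are called and the untested genes are open bars. Ccl3, Ccl4 and Cxcl1 were tested only through AdCKO.

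The same libraries were high or low in many of the members. Control 3 was the highest Control library in 28 of the 48 members and in 16 of the 20 called higher. Among those 20, the highest AdCKO library was AdCKO 1 in 9 and AdCKO 4 in 8, and the lowest was AdCKO 5 in 15. Leukocyte markers also differed between mice of a group. The 12 macrophage markers were called higher in 12 of 12 and summed to 756 to 2383 in Control, with Control 3 highest, and 8530 to 11649 in AdCKO. T cell markers (2 of 8 tested called higher, of 12 listed) summed to 55.7 to 105 in Control, with Control 3 highest, and 102 to 408 in AdCKO, with AdCKO 1 highest. B cell markers (1 of 3 tested called higher, of 8) summed to 22.4 to 26.1 in Control, 141 in AdCKO 1 and 27.1 to 36.6 in the other AdCKO libraries. No deposited value is 0, so these sums do not show that each marker was detected. Without Control 3 and AdCKO 1, a setting chosen after seeing the data, 21 members were called higher and 3 lower. Over all 11211 genes tested in that setting, 2585 were called higher and 2765 lower.

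**Figure D4:**
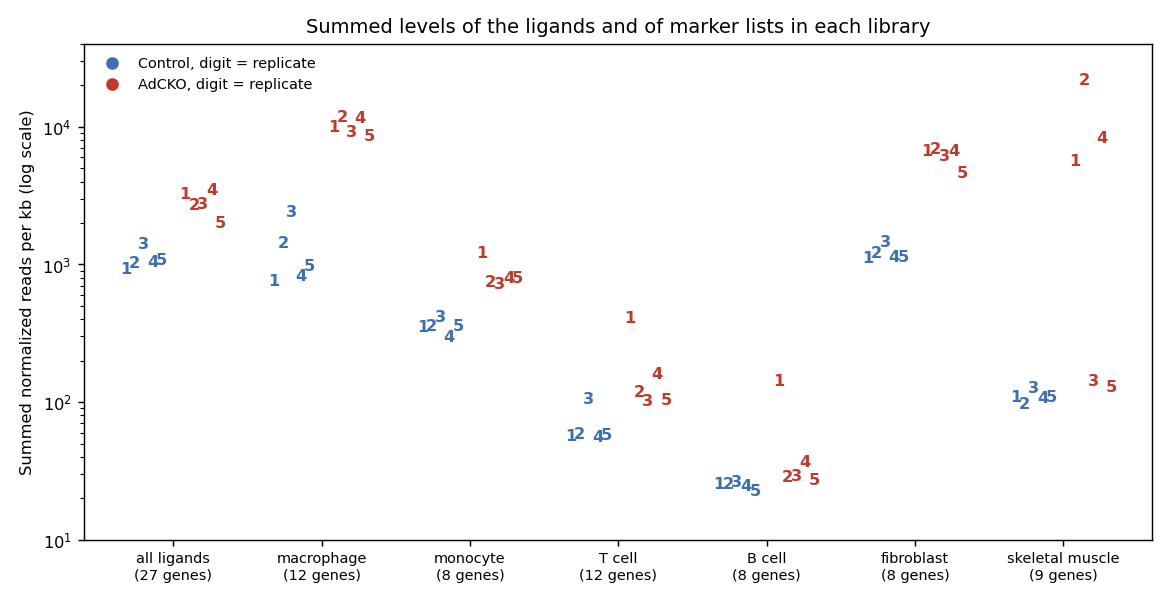
Summed normalized reads per kb (log axis) of the 27 ligands and of lists of marker genes in each library, where a digit is the replicate number of a Control (blue) or AdCKO (red) mouse. Control 3 is the highest Control library for the ligands, at 1395, and for macrophage and T cell markers, and AdCKO 1, 2 and 4 stand apart in skeletal muscle markers.

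Markers of other cell types were counted too. For these and the leukocyte counts above, the shares over all genes tested were 25.6% higher and 28.0% lower. Of 7 tested monocyte markers 4 were higher (summed 295 to 412 in Control, 712 to 1196 in AdCKO), of 4 tested dendritic cell markers 3 (280 to 1096, 1297 to 1937), and of 2 tested NK cell markers 2 (32.8 to 51.4, 40.0 to 84.6). Of 8 fibroblast markers 7 were higher, with sums of 1109 to 1453 and 4613 to 6794. Of 8 endothelial markers 2 were higher and 1 lower, not above those shares, and their sums overlapped (1930 to 2423, 1982 to 2795). Of 3 tested lymphatic endothelial markers 2 were higher (27.0 to 37.1, 40.5 to 72.9). Of 10 brown adipocyte markers 7 were lower and 0 higher. Of 4 tested markers of mast cells and eosinophils 2 were higher and 1 lower (82.3 to 111, 96.7 to 150). The 3 neutrophil markers found were all under the filter (8.03 to 9.61, 12.8 to 18.0), and of 9 skeletal muscle markers 1 was called higher. Many leukocyte markers were tested only through AdCKO: 2 of 12 for macrophages, 2 of 7 for monocytes, 2 of 4 for dendritic cells, 7 of 8 for T cells, 3 of 3 for B cells, 1 of 2 for NK cells and 2 of 4 for mast cells and eosinophils, as were 2 of 3 lymphatic endothelial and 4 of 9 muscle markers. Of the markers that passed in both groups, 10 of 10 for macrophages, 4 of 5 for monocytes, 1 of 2 for dendritic cells, 0 of 1 for T cells and 1 of 1 for NK cells were higher. For mast cells and eosinophils 0 of 2 were higher and 1 was lower. For lymphatic endothelium 0 of 1 and for muscle 1 of 5 were higher. The part of each cell type in the chemokine changes was not tested.

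Genes that act with the chemokines were counted from lists. Of the 31 tested of 35 genes for signalling from chemokine receptors, 19 were higher and 4 lower, where 25.6% of all genes tested were higher and 28.0% lower. Of these 31, 8 had a Control mean under 10 and were tested only through AdCKO, and of the other 23, 11 were higher and 4 lower. The 4 with the smallest p were Pik3r5, a subunit of PI 3-kinase gamma (log2 fold change 2.40), Adrbk2, a kinase that shuts off such receptors and was lower (-1.80), the kinase Lyn (0.96) and the G protein subunit Gng2 (1.66). Pik3r5, with a Control mean of 7.22, was among the 8 tested only through AdCKO. The other lower genes were Plcb3 (-0.58), Grk5 (-0.41) and Gnb2 (-0.33). The median over all 35 listed was 0.64.

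Of 30 genes of the pathways that induce chemokines, 23 were tested, 14 were higher and 0 lower, with a median of 0.32 over the 30. Over all genes tested, 25.6% were higher and 28.0% lower. Nfkbie, Tnfaip3, Fos and Tlr2 had Control means of 5.54 to 9.15 and were tested only through AdCKO, and of the other 19, 10 were higher and 0 lower. The smallest p were those of Irf5, a transcription factor of myeloid cells (log2 fold change 2.38), Jun, a part of AP-1 (1.55), Tlr4, the receptor for endotoxin (0.92), and Nfkb2, a subunit of NF-kB (0.78). The inducing cytokines themselves were under the filter, with Tnf at means of 3.95 and 7.50, Il1b at 2.84 and 3.74, Il6 at 1.42 and 1.59 and Ifng at 1.15 and 1.20.

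Of 20 genes found for enzymes and matrix molecules that cut, modify or carry chemokines, 16 were tested, 10 were higher and 1 (Ndst1, a heparan sulfate enzyme, -0.38) was lower. Of the 14 that passed the filter in both groups, 8 were higher and 1 lower, against 25.6% and 28.0% of all genes tested. Mmp12, the macrophage elastase, which cuts several chemokines, had the largest change, from 6.08 ± 0.531 to 429.8 ± 158 (SD, n = 5 each; log2 fold change 5.85, adjusted p = 2.16e-09). Mmp14 (2.57), the matrix carrier Sdc1 (2.65) and heparanase, Hpse (1.93), followed by p. Mmp12 and Hpse, with Control means of 6.08 and 4.12, were tested only through AdCKO. The sheddases Adam10 and Adam17, which release CX3CL1 and CXCL16 from the membrane, had log2 fold changes of 0.45 (adjusted p = 9.09e-05) and 0.57 (adjusted p = 2.90e-05); they were named for this role after their values were seen.

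Chemokine genes that bear other names went the same way: Pf4, platelet factor 4, rose by 1.56 on the log2 scale (adjusted p = 5.37e-05), the atypical receptor Ccrl2 by 0.64 (adjusted p = 4.23e-05), and Ppbp was under the filter. Of 16 genes for other chemoattractants and their receptors, 12 were tested, 10 were higher and 0 lower. Of the 10 that passed the filter in both groups, 8 were higher and 0 lower, against 25.6% and 28.0% of all genes tested. The smallest p of the 12 tested were those of the complement receptors C3ar1 (3.05) and C5ar1 (2.82), Spp1, or osteopontin (2.79), and Ptafr, the receptor of platelet-activating factor (2.12). Spp1 and Ptafr, with Control means of 7.43 and 9.44, were tested only through AdCKO.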

How the data were processed

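Polyadenylated RNA from 5 Control and 5 AdCKO iBAT samples was sequenced by the authors, mapped to mm9 with STAR, counted on exons with iRNA-seq and normalized with DESeq2. The deposited unit is a normalized signal, reads per kb of counted exon for 15075 genes, and not a count. Their deposited fold changes and p-values were not used. DESeq2 on counts, the study's test, could not be run on these values.

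Groups and replicate numbers came from the sample titles. A pseudocount of 1 was added, and the 11244 genes with a group mean of at least 10 were fitted with limma 3.58.1 in R 4.3.3 (intensity trend, two-sided, adjusted p under 0.01). On simulated data for this comparison, with 10614 genes fitted, 190 of 199 changed genes were recovered and 1 unchanged gene was called. Few genes were changed in that simulation, by set amounts and with normal noise, while 25.6% and 28.0% of genes tested were called here. Its figures therefore do not measure the error of these calls. Counts of members include 1 gene whose values are not reported here. The precision given is the spread of the deposited values between mice. Members and lists were chosen with earlier results of these data known. Values by library are given for the 12 members with the smallest p and all lower members, and of each list at most 4 genes with the smallest p and up to 3 called against its main direction. Tnf, Il1b, Il6, Ifng, Nfkbie, Tnfaip3, Fos, Tlr2, Adam10 and Adam17 fall outside this rule and were named after their values were seen. Overlaps and shared 50-base stretches came from GENCODE vM1 on the same assembly as mm9. Alternatives were other pseudocounts, filters, scalings, limma settings and thresholds, a replicate block, and libraries left out.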

Additional observations from a re-analysis of the deposited data

Results flagged for a closer look

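In 4 of the 54 groups of 5 libraries tested (27 members in both genotypes), 1 library stood apart from the other 4 by Dixon's ratio on the log2 scale (above 0.71), and in all 4 it was Control 3, as the highest. Chance flags about 1 in 20 groups. Ccl8 was 96.6 normalized reads per kb in Control 3, against 22.0 to 23.6 in the other Control libraries. Ccl5 was 73.9 there, against 20.5 to 26.7. Cxcl16 was 42.2, against 20.2 to 24.7. Ccr7 was 6.07, against 4.63 to 4.97. Control 3 also had the highest summed level of macrophage markers in Control, at 2383 against 756 to 1429.6, and of T cell markers, at 105 against 55.7 to 58.3, and the part of these cells in the 4 values was not tested.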

How the results depend on the processing

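Of the 23 called members, 17 kept call and direction in all 22 other settings, 6 lost the call in 1 or more (Ccl4, Ccl5, Ccl8, Ccl11, Ccr7 and Cxcr3) and 0 reversed. Lower receptors numbered 2 in every setting. After quantile normalization 2 ligands were lower, Ccl25 joining Ccl27a, and the cause was not tested. With the same total in every library, Ccl25 (0.22, adjusted p = 0.0941) and Cxcl14 (0.27, adjusted p = 0.163), both not called, turned positive, though relative to the shift of all genes they were -0.25 and -0.20. With each library left out in turn, 17 to 22 members were higher and 3 lower, ligands 13 to 16. Leaving out AdCKO 1, 2 and 4, chosen after seeing the data, left 14 members higher. With the replicate block 18 members were higher, and Ccl5 (adjusted p = 0.0128) and Cxcr3 (adjusted p = 0.0261) lost the call. The numbers do not pair the mice: deviations of same-numbered libraries correlated between -0.27 and 0.10, and 0 of 5 matched their own number best. The depth before normalization is unknown. Some low members varied little within Control: Ccr3 was 0.433 to 0.435, and Ccl4 had an SD of 0.240 at a mean of 8.46 normalized reads per kb. Over its counted bases that Ccl4 mean comes to 5.58 normalized reads. The deposited values appear moderated at low levels, in a way the sources do not name. The SD, overlap and p of low members may therefore understate the spread between mice.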
